A study of Macaca mulatta with 10 samples.

Results

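Axon guidance ligands and receptors were compared in the dorsal thalamus of the rhesus monkey (Macaca mulatta), over 5 of its nuclei. The genes were taken by symbol alone: Eph receptors (EPHA and EPHB), ephrins (EFNA and EFNB), plexins, neuropilins, semaphorins, Slits, Robos, DCC, the UNC5 receptors and the netrins NTN1, NTN3, NTN4, NTNG1 and NTNG2. Of the 11963 genes measured, 59 met this rule. They comprise 10 Eph receptors, 8 ephrins, 8 plexins, 2 neuropilins, 18 semaphorins, 3 Slits, 3 Robos, 3 netrin receptors and 3 netrins. The symbol rule also took UNC50, which shares only its first letters with the UNC5 receptors, so 58 members are guidance genes by name. Total RNA from tissue micro-punches of untreated adult monkeys was biotin-labelled and put on an Affymetrix array made for human transcripts. The 10 arrays form 5 groups of 2, labelled Pulvinar, Centre Median, Anterior Thalamus, Medial Thalamus and Ventral Thalamus, and the study compared the nuclei with each other. The animals had no stated genetic change and no treatment, and neither their number nor whether arrays came from separate animals is given, so p-values measure only the spread between these arrays. A punch holds neurons and glia, so fewer cells of a type and less RNA per cell cannot be told apart.

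Guidance ligands are secreted or membrane-bound proteins that attract or repel growing axons through receptors on the growth cone. In the developing thalamus, gradients of Eph receptors and ephrins, together with Slit-Robo, netrin-DCC and semaphorin-plexin signals, steer thalamic axons through the internal capsule and sort them by their cortical target. In the adult brain many of these genes are still expressed, and several act at synapses. Among the 5 nuclei, the Centre Median is an intralaminar nucleus with a strong projection to the striatum. The others mainly project to the cortex.

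Values are log2(intensity + 1), where a difference of 1 is a 2-fold difference. Differences are between values of the same probe set, a group of short probes read as 1 value. A gene was called at a Benjamini-Hochberg adjusted p under 0.05 in limma, over all 11963 genes. Median intensity was 94.2 to 100.6 on the 10 arrays. The arrays numbered replicate 2 stood apart from those numbered replicate 1 in every nucleus. Between the replicate numbers limma called 56.6% of all genes and 31 of the 59 guidance genes, which is 52.5% of them. Same-numbered arrays also deviated together, so calls are given without the replicate number and with it as a block. Standard errors and 95% intervals are from the fit with the block. These intervals are not adjusted for the number of genes, so an interval that leaves out 0 is not a call. The gap between the 3′ and 5′ actin control probes is a sign of RNA quality. It ranged from 1.15 to 1.64 in replicate 2 and from -0.09 to 0.46 in replicate 1, other than in Ventral Thalamus, where it was 1.22. The largest gap of replicate 2, 1.64, was also that of Ventral Thalamus. XIST is read from the inactive X chromosome of females. It was at 8.96 and 9.60 on the replicate 1 arrays of Centre Median and Pulvinar and at 6.70 to 7.22 on the other replicate 1 arrays. On all replicate 2 arrays it was at 9.86 to 10.34. The replicate block thus joins arrays of unlike XIST within replicate 1. Of 9 measured markers of thalamic relay neurons, the transcription factor TCF7L2 read 11.78 to 13.00 on the 10 arrays. The vesicular glutamate transporter SLC17A6 read 10.33 to 11.54. The other relay neuron markers are not given singly, so these values do not stand for the list.

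EPHA4 and PLXNC1 were the members that differed among the nuclei once the replicate number was in the model. With the block, 2 of the 59 (3.39%) were called in the F test over all 5 nuclei, against 0.393% of all genes. EPHA4 was highest in Centre Median and lowest in Ventral Thalamus, and PLXNC1 was lowest in Ventral Thalamus. Without the block, limma called 0 of the 59 and 0% of all genes. At an unadjusted p under 0.05 that fit held 0 members and 86 of all genes. With the block, 7 members (11.9%) had an unadjusted p under 0.05, against 9.68% of all genes. The range between the highest and the lowest nucleus mean had a median of 0.26 over the members and 0.23 over all genes. For 5 members (8.47%) it was 1.5-fold or more, against 5.27% of all genes, and these were EPHA4, PLXNC1, EPHB6, EPHA3 and EFNB3. In 28 members the range was under 0.25.

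**Figure D1:**
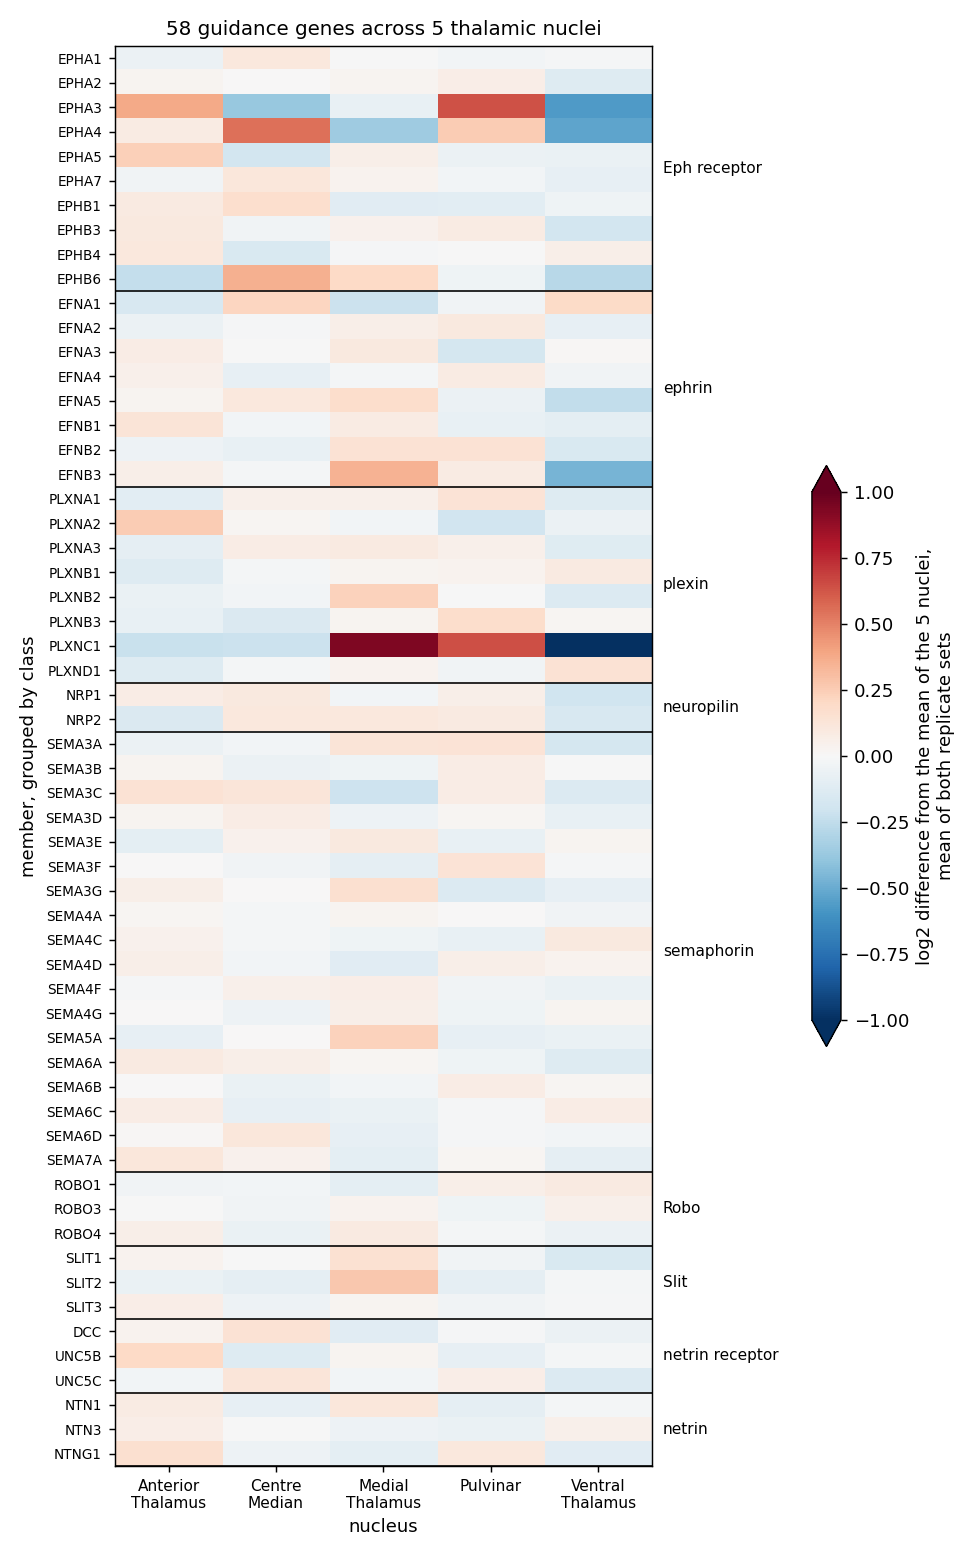
Mean of each nucleus minus the mean of all 5 nuclei, on the log2 scale, for the 58 guidance genes ordered by class, without UNC50. The colour scale ends at -1 and 1, and PLXNC1 in Ventral Thalamus lies beyond its lower end. Most rows are pale, and the strongest colours are those of PLXNC1, EPHA4, EPHA3 and EFNB3.

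Of the 5 comparisons of a nucleus with the other 4, the blocked fit called members in Centre Median and Ventral Thalamus. In Centre Median it called 1 member, EPHA4, against 0.176% of all genes. Ventral Thalamus had 2, EPHA4 and PLXNC1, both lower, against 0.527% of all genes. In Medial Thalamus it called 0 members and 0.159% of all genes, and in Anterior Thalamus and Pulvinar 0 members and 0% of all genes. At an unadjusted p under 0.05 these last 3 comparisons held 8, 4 and 3 members (13.6%, 6.78% and 5.08%), close to the 10.3%, 5.75% and 3.73% of all genes. Without the block, limma called 0 members in each, with 0.0251% of all genes in Centre Median and 0% in the other 4. Members with an unadjusted p under 0.05 there were PLXNA2 in Anterior Thalamus and EPHA7 in Centre Median. Each is 1.69% of members, against 0.301% and 0.995% of all genes. In Medial Thalamus they were PLXNB2 and SLIT2 (3.39% against 1.22%), and in Ventral Thalamus EFNB3 and PLXNC1 (3.39% against 1.57%). Pulvinar had 0, against 0.284% of all genes. The 3 pairs among Centre Median, Medial Thalamus and Ventral Thalamus were also compared directly. With the block, Centre Median differed from Ventral Thalamus in 1 member (EPHA4, with 0.368% of all genes) and from Medial Thalamus in 1 (EPHA4, with 0.0752% of all genes). Medial Thalamus differed from Ventral Thalamus in 1 member (PLXNC1, with 1.08% of all genes). Without the block, the 3 pairs held 0 called members, with 0.00836% of all genes called in both Centre Median pairs and 0% between Medial Thalamus and Ventral Thalamus. Unadjusted p-values under 0.05 were seen there for 3 members between Medial Thalamus and Ventral Thalamus, for 1 between Centre Median and Ventral Thalamus and for 0 between Centre Median and Medial Thalamus (5.08%, 1.69% and 0%), against 1.86%, 1.62% and 0.761% of all genes.

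EPHA4 encodes an Eph receptor tyrosine kinase that binds both A and B ephrins and, in growing thalamic axons, takes part in their sorting toward cortical areas. In the order Anterior Thalamus, Centre Median, Medial Thalamus, Pulvinar, Ventral Thalamus, which is kept for every gene, EPHA4 read 8.72, 9.20, 8.25, 8.86 and 8.00 on the replicate 1 arrays and 7.86, 8.31, 7.46, 8.07 and 7.36 on the replicate 2 arrays. Both sets of arrays gave the same order, with Centre Median highest, then Pulvinar, Anterior Thalamus, Medial Thalamus and Ventral Thalamus. Each replicate 2 array lay below the replicate 1 array of its nucleus, with differences of -0.89 to -0.64, so the arrays of a nucleus overlap with those of the others when the sets are pooled. In Centre Median the mean was 8.76, against 8.07 in the other 4 nuclei, a difference of 0.68 (SE 0.0977, 95% interval 0.47 to 0.90) or 1.61-fold. With the block its limma adjusted p was 0.0107, and the difference was 0.74 within replicate 1 and 0.63 within replicate 2. Without the block the adjusted p was 1.00.

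In Ventral Thalamus EPHA4 had a mean of 7.68, against 8.34 in the other 4 nuclei. The difference of -0.66 (SE 0.0977, 95% interval -0.87 to -0.45), a 1.58-fold lower level, had an adjusted p of 0.0137 in limma with the block and was -0.75 and -0.56 within the sets. Centre Median exceeded Ventral Thalamus by 1.07 (SE 0.124, 2.10-fold, adjusted p = 0.00163 in limma with the block). It exceeded Medial Thalamus by 0.90 (1.87-fold, adjusted p = 0.0123). The differences of Medial Thalamus (-0.44) and Pulvinar (0.32) from the other 4 nuclei were not called, with adjusted p-values of 0.0980 and 0.999. Neighbours in the order were not tested, other than through these comparisons. In the F test with the block the adjusted p of EPHA4 was 0.00656, rank 11 of all genes. Leaving out 1 array ended calls: without the Centre Median replicate 1 array the F test gave an adjusted p of 0.0690. The Centre Median difference was then 0.63 (adjusted p = 0.560). Its adjusted p was 0.107 without the Centre Median replicate 2 array and 0.0667 with the replicate 1 arrays split in 2 by XIST. The Ventral Thalamus call was lost without either Ventral Thalamus array, at -0.56 (adjusted p = 0.209) without replicate 1 and -0.75 (adjusted p = 0.146) without replicate 2. Nuclei left with 1 array were assumed to vary like the others. With the actin gap as a covariate the Ventral Thalamus difference was -0.59 (adjusted p = 0.391).

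PLXNC1 encodes plexin-C1, the receptor of the membrane-anchored semaphorin SEMA7A. It read 7.47, 7.38, 8.72, 7.92 and 7.11 on the replicate 1 arrays and 8.67, 8.77, 9.73, 9.94 and 7.18 on the replicate 2 arrays. The lowest value of each set came from Ventral Thalamus, while the highest came from Medial Thalamus among the replicate 1 arrays and from Pulvinar among the replicate 2 arrays. The replicate 2 array lay above replicate 1 by 1.02 to 2.02 in the other 4 nuclei and by 0.07 in Ventral Thalamus. The Ventral Thalamus mean of 7.15 compared with 8.58 in the other 4 nuclei, a difference of -1.43 (SE 0.240, 95% interval -1.95 to -0.91) or 2.69-fold. Its adjusted p was 0.0210 in limma with the block and 1.00 without it, and the difference was -0.76 within replicate 1 and -2.10 within replicate 2. Medial Thalamus exceeded Ventral Thalamus by 2.08 (SE 0.304, 4.22-fold, adjusted p = 0.0101 with the block and 1.00 without it), at 1.61 and 2.55 within the sets. The difference of Medial Thalamus from the other 4, 1.17, had an adjusted p of 0.0865. Centre Median exceeded Ventral Thalamus by 0.93, with an adjusted p of 0.319.

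**Figure D2:**
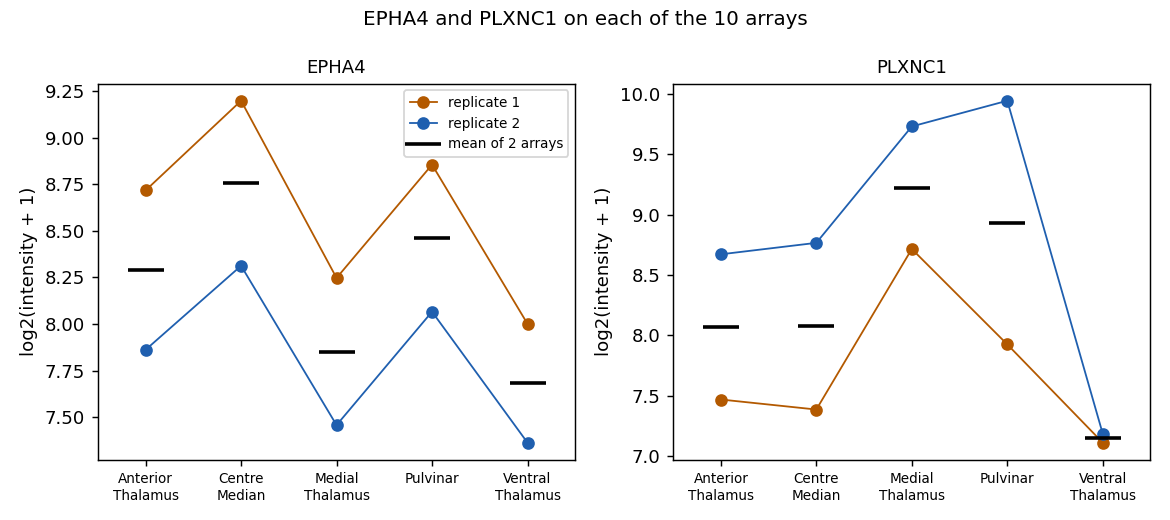
EPHA4 (left) and PLXNC1 (right) on each of the 10 arrays, as log2(intensity + 1), by nucleus. Points are arrays, lines join the 5 arrays of a replicate number and bars are the mean of 2 arrays. The lines of EPHA4 run in parallel with replicate 1 above, and those of PLXNC1 meet at Ventral Thalamus (7.11 and 7.18).

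PLXNC1 has 3 probe sets on the array, and the values above come from the one with the highest mean, 213241_at. A second, 206471_s_at, read 5.92, 5.76, 6.46, 6.04 and 5.46 on the replicate 1 arrays and 5.80, 6.10, 5.99, 5.88 and 5.38 on the replicate 2 arrays. It was also lowest in Ventral Thalamus in both sets, with a difference of -0.57 from the other 4 nuclei and 0.81 between Medial Thalamus and Ventral Thalamus. The third, 206470_at, read 5.88, 5.76, 6.11, 5.92 and 5.85 on the replicate 1 arrays and 5.85, 6.04, 5.71, 5.94 and 5.50 on the replicate 2 arrays. Its difference in Ventral Thalamus was -0.22, and its replicate 1 array there lay within the range of the other nuclei. All 3 probe sets were thus lower in Ventral Thalamus, by different amounts. With the mean of the probe sets in place of that one, the Ventral Thalamus difference was -0.74 (limma adjusted p = 0.0803 with the block). The difference between Medial Thalamus and Ventral Thalamus was then 1.04 (adjusted p = 0.0388), smaller than the 2.08 of the probe set used but still called. The F test of PLXNC1 with the block had an adjusted p of 0.0404. This call was lost under several settings. Its adjusted p was 0.167 with the mean of the probe sets, 0.115 with the actin gap as a covariate and 0.0507 with log2(intensity + 16). It was 0.0859 to 0.116 when 1 of the 4 arrays of Anterior Thalamus and Centre Median was left out. Without the Medial Thalamus replicate 1 array it was 0.0505. The Ventral Thalamus difference was -0.76 (adjusted p = 0.405) without the Ventral Thalamus replicate 2 array. Leaving out 1 array of Anterior Thalamus or Centre Median gave -1.47 to -1.39, with adjusted p-values of 0.0501 to 0.0742. The actin covariate gave -1.92 (adjusted p = 0.114).

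**Figure D3:**
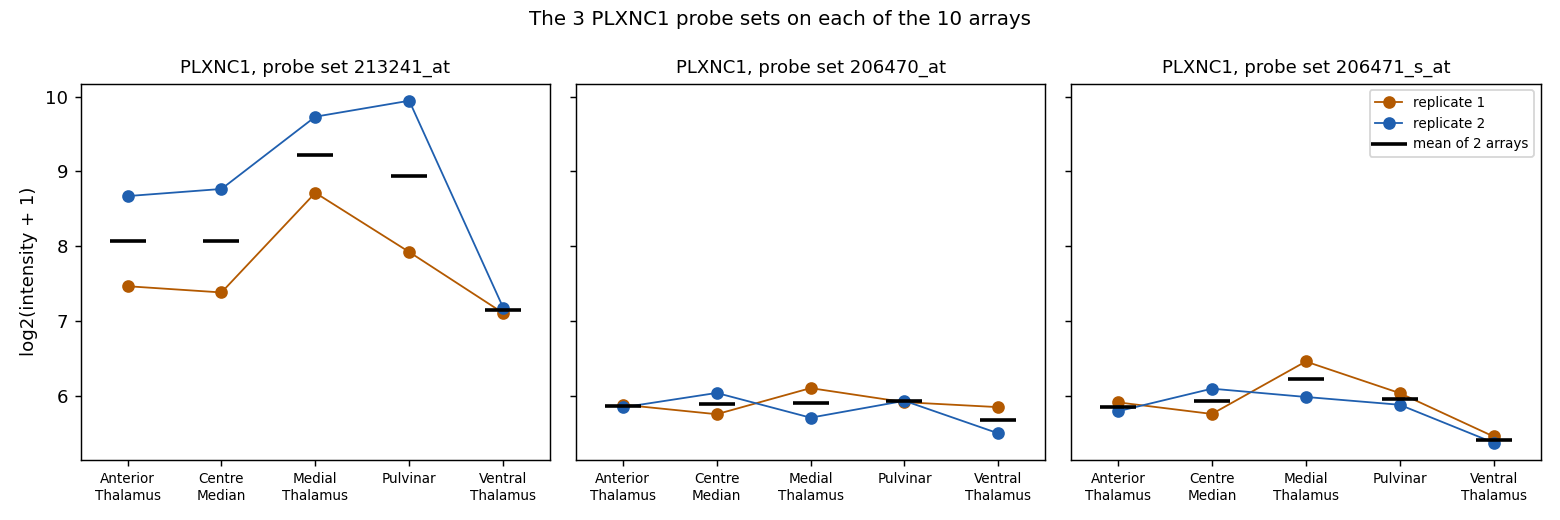
The 3 PLXNC1 probe sets on each of the 10 arrays, as log2(intensity + 1), on a shared axis. Points are arrays, lines join arrays of 1 replicate number and bars are the mean of 2 arrays. The Ventral Thalamus means are the lowest of each panel, and the difference from the other 4 nuclei runs from -0.22 to -1.43.

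Markers of glia and neurons also differed among the nuclei. Of 9 oligodendrocyte and myelin markers measured, 8 were above the other 4 nuclei in Ventral Thalamus (median difference 0.48). CNP, MAG and TF were called higher there with the block. Their summed intensity was 15937 and 19324 on the Ventral Thalamus arrays and 8004 to 15752 on the other 8. Of 9 astrocyte markers 5 were above the other nuclei, and GFAP, an intermediate filament of astrocytes, was called lower there, with a difference of -1.11 (adjusted p = 0.0378 in limma with the block). The 9 relay neuron markers had a median difference of -0.04 in Ventral Thalamus, with 4 above. All 8 microglia markers were above the other nuclei there (median difference 0.02). So were 4 of 7 GABA neuron and 4 of 6 oligodendrocyte precursor markers (median differences 0.40 and 0.27). In Centre Median, 8 of the 9 myelin markers and 2 of the 9 relay neuron markers were above the other nuclei (median differences 0.18 and -0.17). In Medial Thalamus 1 of the 9 myelin markers (median difference -0.51) and 2 of the 9 relay neuron markers (median difference -0.34) were above the other nuclei, as were 8 of 9 astrocyte and 8 of 8 microglia markers (median differences 0.09 for both). GAD1, a marker of GABA neurons, was called lower in Medial Thalamus with the block. Between Medial Thalamus and Ventral Thalamus, the pair in which PLXNC1 was called, the blocked fit called 4 myelin markers (CNP, MAG, MOG and TF) lower in Medial Thalamus and GFAP higher. It also called the neuronal markers SLC17A6 (-0.77, adjusted p = 0.0459) and GAD1 (-1.24, adjusted p = 0.0178) lower there. In this pair 1 of 9 myelin, 4 of 9 astrocyte, 4 of 9 relay neuron and 2 of 7 GABA neuron markers were higher in Medial Thalamus. The median differences were -0.79, -0.06, -0.20 and -0.55. GFAP and SLC17A6 thus do not stand for their lists. Without the block limma called 0 of these markers in any of the comparisons, and the F test had an unadjusted p under 0.05 for 2 myelin markers and 1 astrocyte marker. The part of these cell types in the values of EPHA4 and PLXNC1 was not tested.

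The other Eph receptors were not called by limma with the block, in which 2 of them, EPHB6 and EPHA3, had an unadjusted F-test p under 0.05. EPHB6, a receptor whose kinase domain is inactive, read 6.81, 7.42, 7.32, 7.00 and 6.61 on the replicate 1 arrays and 6.32, 6.89, 6.68, 6.50 and 6.43 on the replicate 2 arrays. Centre Median was highest in both sets, by 0.44 over the other 4 nuclei (95% interval 0.22 to 0.67), with an adjusted p of 0.174 in limma with the block. It exceeded Ventral Thalamus by 0.63 (adjusted p = 0.0741). EPHA3, a receptor of ephrin-A5, read 7.08, 6.14, 6.34, 6.96 and 6.54 on the replicate 1 arrays and 7.45, 6.89, 7.30, 8.09 and 6.11 on the replicate 2 arrays. The mean was highest in Pulvinar and lowest in Ventral Thalamus, a 2.30-fold range, but the low Ventral Thalamus mean came from the replicate 2 array. The difference of Ventral Thalamus was -0.09 within replicate 1 and -1.32 within replicate 2, and its other probe sets gave -0.25 and -0.04. The F test with the block gave an adjusted p of 0.186, and 0.0103 without the Ventral Thalamus replicate 1 array. EPHA7, an A-class receptor, read 4.35, 4.55, 4.40, 4.35 and 4.30 on the replicate 1 arrays and 4.32, 4.42, 4.41, 4.33 and 4.26 on the replicate 2 arrays. The nuclei kept 1 order in both sets, with Centre Median highest and Ventral Thalamus lowest, although the difference of Centre Median was 0.14 (95% interval 0.02 to 0.26, adjusted p = 0.725). EPHA4 and EPHA7 were the members with 1 order of all 5 nuclei in both sets, which is 3.39% of members against 1.22% of all genes. EPHA7 had the lowest mean of the 59 members, 4.37, where the lowest of all genes was 3.82. Its order rests on small steps, with Anterior Thalamus and Pulvinar both at 4.35 in replicate 1. EPHB3, a B-class receptor, read 8.22, 8.04, 8.14, 8.09 and 7.91 on the replicate 1 arrays and 7.66, 7.57, 7.62, 7.75 and 7.39 on the replicate 2 arrays. It was lowest in Ventral Thalamus in both sets, with a difference of -0.23 (95% interval -0.44 to -0.03). The F test of EPHB3 with the block gave an adjusted p of 0.725. The remaining 5 Eph receptors (EPHA1, EPHA2, EPHA5, EPHB1 and EPHB4) had ranges of 0.16 to 0.42 and F-test adjusted p-values of 0.836 or more with the block.

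Ephrins are the ligands of these receptors, held to the membrane by a lipid anchor in the A class and by a transmembrane segment in the B class. None was called by limma with the block, in which 2 ephrins had an unadjusted F-test p under 0.05. EFNA1, an A-class ephrin, read 6.54, 7.09, 6.60, 6.69 and 6.96 on the replicate 1 arrays and 7.43, 7.64, 7.27, 7.54 and 7.72 on the replicate 2 arrays. Centre Median and Ventral Thalamus were the highest nuclei in both sets, by 0.27 and 0.24 over the rest, and the F test gave an adjusted p of 0.313 with the block. EFNB3, a B-class ephrin, read 8.34, 8.30, 8.58, 8.33 and 8.27 on the replicate 1 arrays and 8.34, 8.22, 8.67, 8.40 and 7.36 on the replicate 2 arrays. Medial Thalamus was highest and Ventral Thalamus lowest in both sets, and the Ventral Thalamus replicate 2 array lay far below the other 9. The difference of Ventral Thalamus was -0.11 within replicate 1 and -1.04 within replicate 2, and a second probe set gave -0.04. The F test with the block gave 0.405, and 0.0449 without the Ventral Thalamus replicate 1 array. EFNA5, which repels many EphA-bearing axons, read 8.03, 8.04, 8.17, 8.10 and 7.95 on the replicate 1 arrays and 7.73, 7.87, 7.89, 7.49 and 7.26 on the replicate 2 arrays. It too was highest in Medial Thalamus and lowest in Ventral Thalamus in both sets, with a Ventral Thalamus difference of -0.31 (95% interval -0.56 to -0.06, adjusted p = 0.288). EFNB2, a B-class ephrin, read 6.77, 6.78, 6.95, 7.13 and 6.74 on the replicate 1 arrays and 7.37, 7.32, 7.58, 7.40 and 7.20 on the replicate 2 arrays. Ventral Thalamus was lowest in both sets. EFNA4, an A-class ephrin, read 4.67, 4.83, 4.65, 4.89 and 4.86 on the replicate 1 arrays and 5.18, 4.75, 5.06, 5.02 and 4.81 on the replicate 2 arrays, and no nucleus was highest or lowest in both sets. EPHA4 was highest in Centre Median. There the 95% interval of the difference from the other nuclei was -0.12 to 0.38 for EFNA5 and -0.33 to 0.12 for EFNA4. EFNA1 was 0.27 higher there, and the remaining ephrins differed by -0.09 to -0.01. EFNA2, EFNA3 and EFNB1 had ranges of 0.18 to 0.27.

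**Figure D4:**
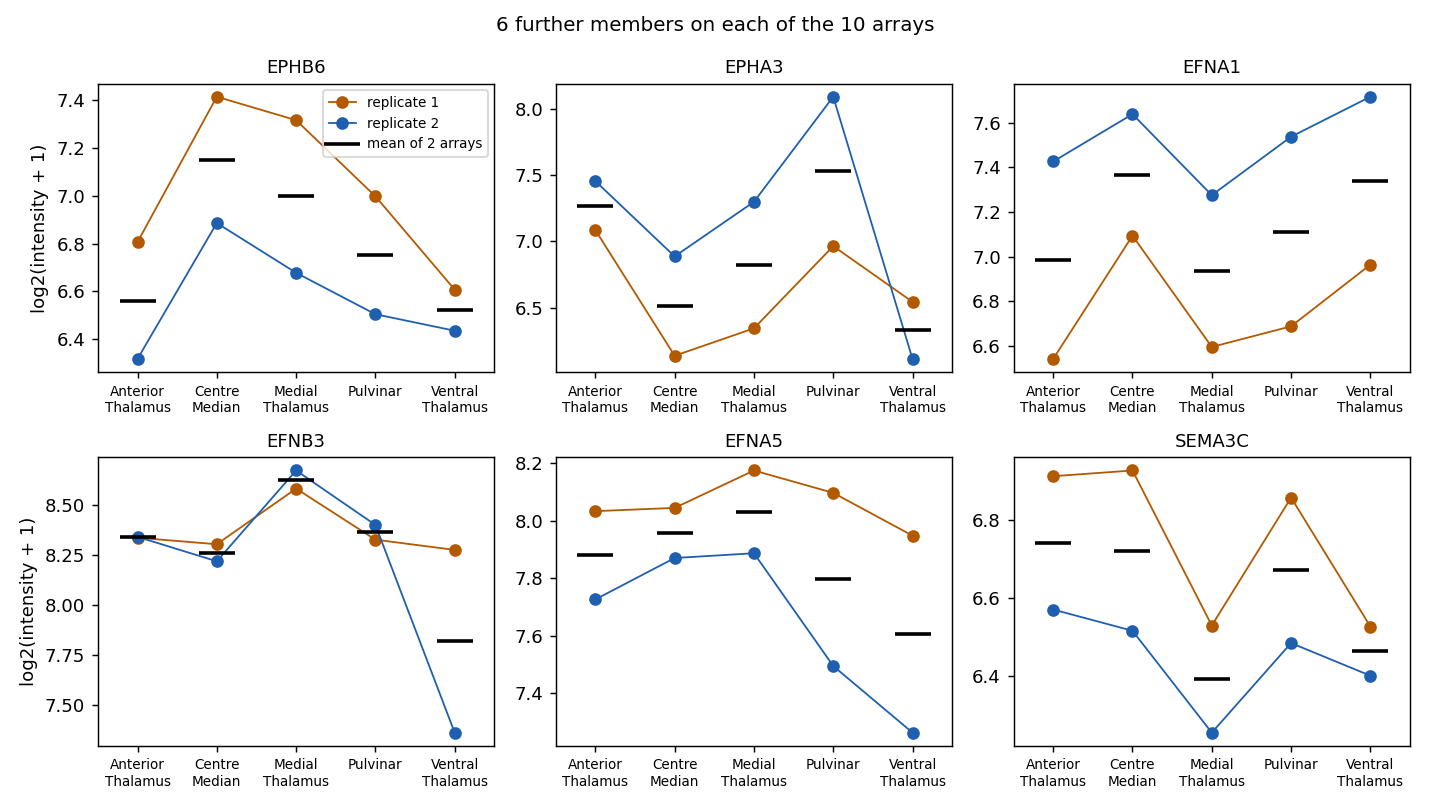
EPHB6, EPHA3, EFNA1, EFNB3, EFNA5 and SEMA3C on each of the 10 arrays, as log2(intensity + 1), each panel with its own axis. Points are arrays, lines join arrays of 1 replicate number and bars are the mean of 2 arrays. The low Ventral Thalamus means of EPHA3 and EFNB3 rest on the replicate 2 array (6.11 and 7.36).

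Semaphorins are secreted or membrane-bound ligands of the plexins, and the class 3 members mostly act through a neuropilin co-receptor. The 18 semaphorins differed little among the nuclei, with a median range of 0.19 and a highest range of 0.35. With the block limma called 0 of them, and 1, SEMA3C, had an unadjusted F-test p under 0.05. SEMA3C, a secreted class 3 semaphorin, read 6.91, 6.93, 6.53, 6.86 and 6.53 on the replicate 1 arrays and 6.57, 6.52, 6.25, 6.48 and 6.40 on the replicate 2 arrays. Its mean was lowest in Medial Thalamus, with a difference of -0.26 (95% interval -0.47 to -0.05, adjusted p = 0.353 in limma with the block). SEMA3A, a secreted repellent of many axons, read 6.23, 6.36, 6.59, 6.56 and 6.28 on the replicate 1 arrays and 6.22, 6.15, 6.24, 6.29 and 5.94 on the replicate 2 arrays. Its difference in Ventral Thalamus was -0.22 (95% interval -0.43 to -0.01), and its F test with the block gave an adjusted p of 0.633. SEMA3E, which binds plexin-D1 directly, read 4.19, 4.32, 4.28, 4.24 and 4.22 on the replicate 1 arrays and 4.53, 4.69, 4.84, 4.53 and 4.76 on the replicate 2 arrays. Anterior Thalamus was lowest in both sets, and every replicate 2 array lay above all replicate 1 arrays. SEMA4A, a transmembrane semaphorin, read 8.49, 8.46, 8.50, 8.59 and 8.51 on the replicate 1 arrays and 8.39, 8.35, 8.40, 8.27 and 8.25 on the replicate 2 arrays. Its range of 0.07 was the smallest of the 59 members. SEMA7A, the ligand of plexin-C1, read 6.98, 7.07, 6.78, 6.96 and 6.83 on the replicate 1 arrays and 6.98, 6.76, 6.76, 6.82 and 6.73 on the replicate 2 arrays. The lowest SEMA7A value of the replicate 1 set came from Medial Thalamus and that of the replicate 2 set from Ventral Thalamus. SEMA7A and the semaphorins not described singly, 14 in all, had ranges of 0.10 to 0.31 and F-test adjusted p-values of 0.738 or more with the block.

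Of the other plexins, PLXNA2, a signalling partner of the neuropilins, read 7.59, 7.37, 7.37, 7.23 and 7.52 on the replicate 1 arrays and 7.67, 7.43, 7.32, 7.15 and 7.12 on the replicate 2 arrays. Anterior Thalamus was highest in both sets, by 0.32 over the other 4 nuclei (95% interval 0.08 to 0.55, adjusted p = 0.807 in limma with the block). PLXNB2, a receptor of class 4 semaphorins, read 6.94, 6.95, 7.31, 6.91 and 6.77 on the replicate 1 arrays and 6.90, 6.96, 7.12, 7.06 and 6.91 on the replicate 2 arrays. Both Medial Thalamus arrays lay above the other 8, with a difference of 0.29 (95% interval 0.07 to 0.51, adjusted p = 0.312). A second PLXNB2 probe set gave -0.04 there. PLXNB3, a receptor of SEMA5A, read 6.95, 7.03, 7.12, 7.32 and 7.23 on the replicate 1 arrays and 6.79, 6.57, 6.84, 6.93 and 6.71 on the replicate 2 arrays, with Pulvinar highest in both sets. PLXNA1, a further partner of the neuropilins, read 8.26, 8.63, 8.54, 8.19 and 8.19 on the replicate 1 arrays and 8.35, 8.29, 8.40, 8.92 and 8.39 on the replicate 2 arrays. PLXND1, the receptor of SEMA3E, read 6.13, 6.38, 6.48, 6.46 and 6.39 on the replicate 1 arrays and 6.51, 6.49, 6.50, 6.38 and 6.81 on the replicate 2 arrays. For both of these the highest nucleus differed between the sets. PLXNA3 and PLXNB1 had ranges of 0.21. The co-receptor NRP1 read 6.76, 6.68, 6.51, 6.60 and 6.44 on the replicate 1 arrays and 6.42, 6.54, 6.46, 6.54 and 6.18 on the replicate 2 arrays. NRP1 was lowest in Ventral Thalamus in both sets, with a difference of -0.25 (95% interval -0.46 to -0.04). Its F test with the block gave an adjusted p of 0.700. NRP2 read 8.08, 8.17, 7.99, 8.25 and 8.19 on the replicate 1 arrays and 7.83, 8.25, 8.43, 8.13 and 7.70 on the replicate 2 arrays, and its lowest nucleus differed between the sets.

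Slits are secreted repellents and Robos are their receptors. SLIT2 read 6.45, 6.35, 6.57, 6.50 and 6.47 on the replicate 1 arrays and 6.21, 6.26, 6.76, 6.10 and 6.28 on the replicate 2 arrays. Medial Thalamus was highest in both sets, by 0.34 over the other nuclei (95% interval 0.10 to 0.58, adjusted p = 0.278 in limma with the block). On the Medial Thalamus replicate 2 array, the summed intensity of 5 choroid plexus and ependyma markers was 6397, against 1123 to 2057 on the other 9 arrays, and the part of those cells in SLIT2 was not tested. SLIT3 read 7.95, 7.79, 7.92, 7.86 and 7.92 on the replicate 1 arrays and 7.58, 7.52, 7.53, 7.48 and 7.46 on the replicate 2 arrays, with a range of 0.12. ROBO1, a receptor of Slits on axons, read 7.47, 7.35, 7.25, 7.23 and 7.47 on the replicate 1 arrays and 8.04, 8.18, 8.14, 8.47 and 8.29 on the replicate 2 arrays. Every replicate 2 array of ROBO1 lay above every replicate 1 array, and the means of the nuclei lay within a range of 0.19. ROBO4, known mainly from blood vessel endothelium, read 6.90, 6.54, 6.97, 6.81 and 6.63 on the replicate 1 arrays and 6.44, 6.56, 6.43, 6.37 and 6.47 on the replicate 2 arrays. SLIT1 and ROBO3 had ranges of 0.30 and 0.10, and UNC50, which the symbol rule took, had one of 0.25.

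Netrins attract axons through DCC and repel them through the UNC5 receptors, which bind netrin alone or with DCC. UNC5B, a repulsive netrin receptor, read 8.90, 8.46, 8.74, 8.56 and 8.64 on the replicate 1 arrays and 8.40, 8.18, 8.23, 8.18 and 8.24 on the replicate 2 arrays. Anterior Thalamus was highest in both sets, by 0.25 over the rest (95% interval 0.03 to 0.46, adjusted p = 0.846 in limma with the block). A second UNC5B probe set gave -0.01 there. UNC5C, of the same kind, read 5.01, 5.17, 5.12, 5.15 and 4.99 on the replicate 1 arrays and 5.42, 5.57, 5.33, 5.48 and 5.23 on the replicate 2 arrays. Centre Median was highest and Ventral Thalamus lowest in both sets, 0.26 apart (95% interval 0.05 to 0.47). The F test of UNC5C with the block gave an adjusted p of 0.674. DCC, the attractive receptor, read 7.55, 7.68, 7.33, 7.38 and 7.42 on the replicate 1 arrays and 6.86, 6.95, 6.78, 6.93 and 6.80 on the replicate 2 arrays. It was also highest in Centre Median in both sets, and Medial Thalamus was lowest, with a range of 0.26. NTNG1, netrin-G1, is a lipid-anchored netrin of thalamic axons that does not bind DCC. It read 7.94, 7.54, 7.77, 7.79 and 7.59 on the replicate 1 arrays and 7.05, 7.03, 6.71, 7.10 and 6.85 on the replicate 2 arrays. The replicate sets separated fully, and the nuclei lay within a range of 0.27. NTN1, the secreted netrin that DCC binds, had a range of 0.21, and NTN3, a further secreted netrin, read 4.77, 4.67, 4.68, 4.65 and 4.71 on the replicate 1 arrays and 4.79, 4.74, 4.64, 4.63 and 4.82 on the replicate 2 arrays. Among the ligands and receptors of this system, limma called 0 between nuclei with the block, with unadjusted F-test p-values under 0.05 for 0 of the 6.

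The members were also compared by order alone, which needs no model of the replicate shift. It does not remove what goes with a nucleus in both sets. Ventral Thalamus had the largest actin gap of each set (1.22 and 1.64), and the part of RNA quality in its order was not tested. Ventral Thalamus was lowest in both sets for 12 of the 59 members (20.3%), against 5.78% of all genes. These were EPHA4, EPHA7, EPHB3, EFNA5, EFNB1, EFNB2, EFNB3, PLXNC1, NRP1, SEMA3D, SEMA6A and UNC5C. Centre Median was highest in both sets for 7 members (11.9%), against 3.58% of all genes, namely EPHA4, EPHA7, EPHB1, EPHB6, SEMA6D, UNC5C and DCC. Over any nucleus, 17 members (28.8%) had the same highest nucleus in both sets and 18 (30.5%) the same lowest, against 24.8% and 21.4% of all genes. Fewer members lay above the other nuclei in Ventral Thalamus, 16 of the 59, than in Anterior Thalamus (36), Medial Thalamus (35), Pulvinar (27) or Centre Median (24). The median difference of the members in Ventral Thalamus was -0.08, against -0.01 over all genes. Unadjusted p-values under 0.05 were found there for 11 members (18.6%) with the block, against 11.9% of all genes. Where a member had further probe sets, these had the sign of the one used in 26 of 36 cases in Ventral Thalamus and in 22 to 24 of 36 in the other nuclei. Among the members listed by order, a second SEMA6A probe set gave 0.24 in Ventral Thalamus. A second EPHB1 probe set gave -0.17 in Centre Median, so both went against the probe set used. EPHA7, which is in both lists, had the lowest mean of the 59 members, 4.37.

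The shift between replicate numbers was larger than the range of the nuclei in 27 of the 59 members. With nucleus in the model, 9 members were higher and 22 lower on the replicate 2 arrays. PLXNC1 was higher by 1.14, ROBO1 by 0.87 (adjusted p = 1.3e-05 in limma), EFNA1 by 0.74, EPHA3 by 0.55 and EFNB2 by 0.50. EPHA4 was lower, with a shift of -0.79 (SE 0.0782, adjusted p = 5.94e-06), as were NTNG1 at -0.78, DCC at -0.61 and SEMA6A at -0.60. These shifts belong to the probe set used for each gene. A second SEMA6A probe set went the other way, from 4.28 to 4.58 on the replicate 1 arrays to 4.98 to 5.56 on the replicate 2 arrays. Further probe sets of PLXNC1, EPHA3 and EFNB2 were lower on replicate 2 in some nuclei and higher in others. The median size of the shift was 0.23 over the members and 0.24 over all genes. The labels do not say what distinguishes the replicate numbers, and animal, RNA quality and array processing cannot be told apart. The residual standard deviation of the members had a median of 0.230 without the block and 0.123 with it.

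**Figure D5:**
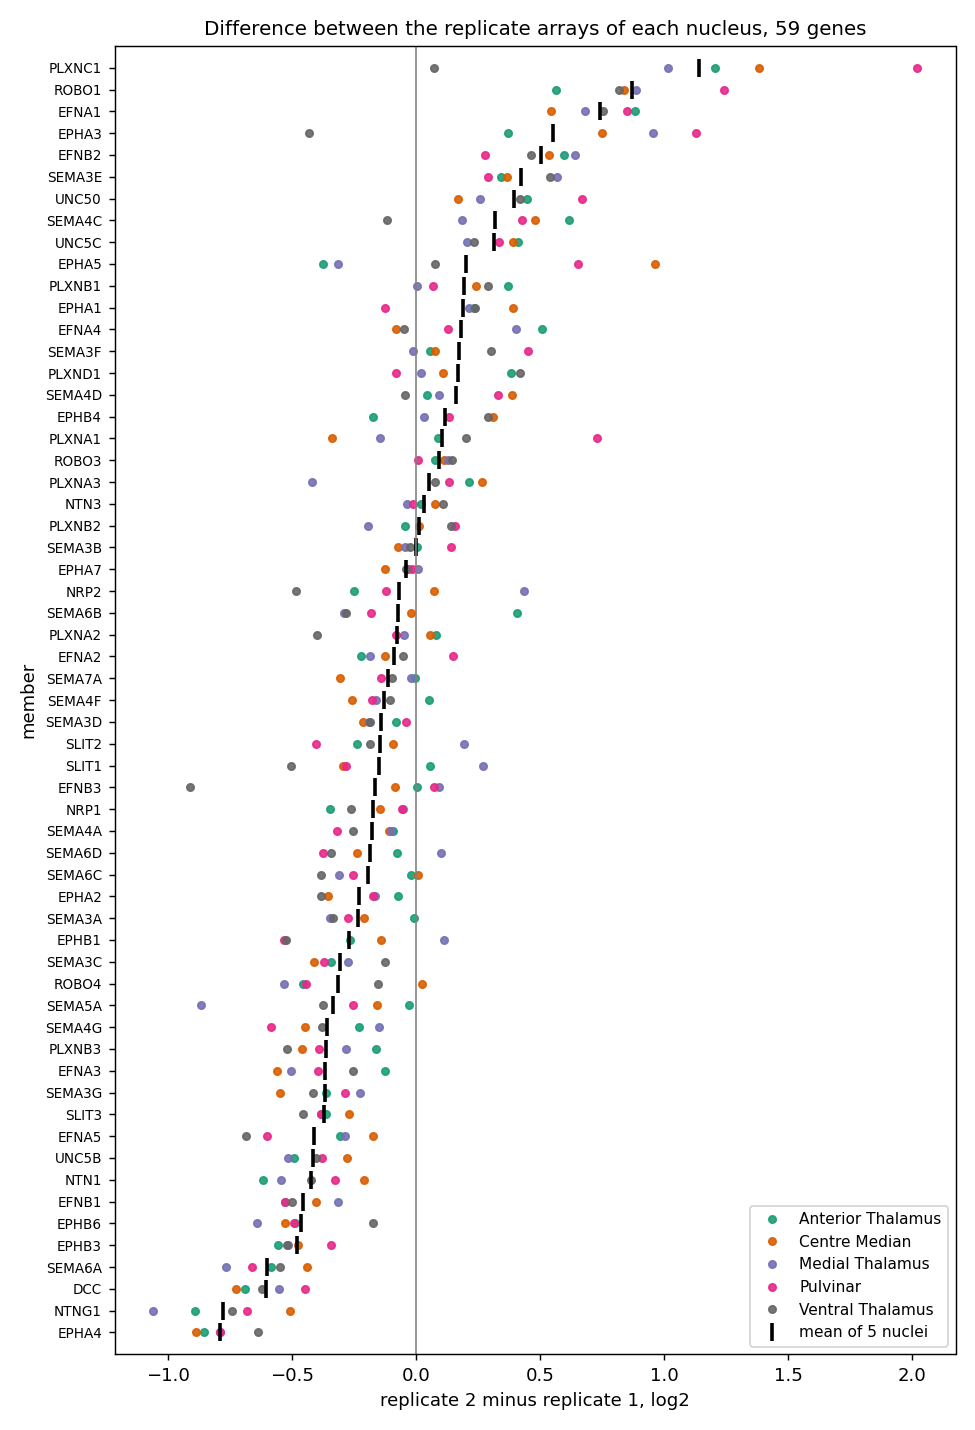
Difference between the replicate 2 and the replicate 1 array of each nucleus, on the log2 scale, for the 59 members in order of their mean. Points are nuclei and bars are the mean of the 5 nuclei. EPHA4, NTNG1 and DCC lie to the left of 0 in all 5 nuclei and ROBO1 and EFNA1 to the right, while the Ventral Thalamus point of PLXNC1 (0.07) lies apart from its other 4.

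Genes that act with or below these receptors were counted as lists. Of 52 guidance effectors measured, limma with the block called 1, DPYSL3, and of 31 other guidance ligands and receptors it called 0, where the F test called 0.393% of all genes. At an unadjusted p under 0.05 the blocked F test held 8 of the 52 and 3 of the 31, against 9.68% of all genes. Without the block it called 0 in both lists, with 1 and 0 genes at an unadjusted p under 0.05, against 0.719% of all genes. DPYSL3 belongs to the collapsin response mediator proteins, cytosolic regulators of the growth cone skeleton that act below semaphorin receptors. It read 7.62, 8.11, 8.08, 7.22 and 7.28 on the replicate 1 arrays and 7.46, 8.03, 8.28, 7.25 and 6.77 on the replicate 2 arrays. The 4 arrays of Centre Median and Medial Thalamus lay above the other 6, and the lowest value of each set came from Pulvinar in replicate 1 and Ventral Thalamus in replicate 2. In Ventral Thalamus the difference from the other 4 nuclei was -0.73 (SE 0.124, adjusted p = 0.0225), and in Medial Thalamus it was 0.71 (adjusted p = 0.0476), both in limma with the block. Without the block the adjusted p of each was 1.00. Medial Thalamus exceeded Ventral Thalamus by 1.15 (2.22-fold, adjusted p = 0.00649 with the block) and Centre Median exceeded it by 1.04 (2.06-fold, adjusted p = 0.0108 with the block), and neither was called without it. A second DPYSL3 probe set gave -0.52 in Ventral Thalamus and 0.55 in Medial Thalamus. Without the Ventral Thalamus replicate 2 array the Ventral Thalamus difference was -0.48 (adjusted p = 0.461), and the F test lost its call without the Centre Median replicate 1 array (adjusted p = 0.0690). The Ventral Thalamus call of DPYSL3 was also lost when 1 array of Anterior Thalamus or Centre Median was left out (adjusted p-values 0.0510 to 0.0742) and with the actin covariate (-1.14, adjusted p = 0.0592). Its Medial Thalamus call was lost with quantile normalization (0.73, adjusted p = 0.0568) and with the mean of both probe sets (0.63, adjusted p = 0.0648), both near the 0.71 above, and under further settings. Of the 52 effectors, 35 lay above the other nuclei in Ventral Thalamus, with a median difference of 0.06, against -0.01 over all genes.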

How the data were processed

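Total RNA of 10 tissue punches, 2 from each of 5 thalamic nuclei, had been hybridised to human Affymetrix arrays, 1 sample an array. The authors deposited normalized intensity values on a linear scale, which the submitters' processing notes credit to RMA without naming a version. Whether both replicate sets were normalized together is not given in the sources used here. The floor of the scale differed between them, with minima of 12.0 to 12.3 in replicate 1 and of 9.49 to 9.55 in replicate 2. No detection calls were used, and a human probe may bind its rhesus transcript more weakly, so a low value was not read as absence. For arrays no count depth applies, and their number limits the precision. No genome build is given with the values, so no coordinates are stated.

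Of 22283 probe sets, 68 were controls, 1043 had several gene symbols in the platform annotation, 2169 (controls included) were not listed there, and 19065 had exactly 1 symbol. For the 4310 genes with several probe sets, the one with the highest mean over the 10 arrays was taken, which left 11963 genes, with no filter on low values. The 59 members have 95 probe sets, and 31 members have 1. Values were taken as log2(intensity + 1), with 16 as an alternative pseudocount.

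limma 3.58.1 in R 4.3.3 fitted 1 coefficient per nucleus to all genes, with empirical Bayes moderation and a variance trend, and Benjamini-Hochberg adjustment over all genes at 0.05. The fit without a block, which is the main one, had 5 residual and 2.91 prior degrees of freedom. Replicate numbers come from the labels, and the difference between replicate 2 and replicate 1 correlated across genes between nuclei in all 10 pairs, at 0.758 to 0.831. The numbers were therefore taken as pairing the arrays, and the fit with the number as a block (4 residual and 8.66 prior degrees of freedom) is given beside it. Contrasts set a nucleus against the mean of the other 4, and they share arrays. No 2 arrays held identical values. The fits were checked on simulated data, and figures were drawn with Python 3.11.15 and matplotlib 3.10.9.

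The members, the gene lists and the tests were chosen with earlier results of these data known. Described singly are the members called in any test, the 20 with the smallest F-test p with the block, and the members with the highest and lowest mean of each class. SEMA7A and DCC were added to these after their values were seen. Of the guidance effectors and other guidance genes, those called were named. Other settings tried were other pseudocounts, probe set rules, a filter on low values, quantile normalization, no variance trend, the actin control gap as a covariate, a split of the replicate 1 arrays at the widest gap in XIST, and leaving out each array in turn.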

Additional observations from a re-analysis of the deposited data

How the results depend on the processing

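The called differences of EPHA4, PLXNC1 and DPYSL3 that were followed under the settings tried kept their direction. Differences that were not called were not followed in this way. With 2 arrays a nucleus the number of arrays limits each call. Adding the replicate block moved the members called from 0 to 2 among the 5 nuclei, from 0 to 1 in Centre Median, from 0 to 2 in Ventral Thalamus and from 0 to 1 in each of the 3 pairs. It left the other 3 comparisons at 0. With the block, the 2 members called among the 5 nuclei became 1 with the mean of all probe sets, 1 with log2(intensity + 16) and 1 with the actin covariate, and 0 to 4 when 1 array was left out, with EPHA3 and EFNB3 joining without the Ventral Thalamus replicate 1 array. In Ventral Thalamus the 2 became 1 with the mean of probe sets, 0 with the actin covariate and 0 to 2 without 1 array. In Centre Median the 1 became 0 with the XIST split and 0 to 1 without 1 array, and in Medial Thalamus 0 became 0 to 1. Between Medial Thalamus and Ventral Thalamus the 1 became 0 with the actin covariate (PLXNC1 2.67, adjusted p = 0.0612 in limma) and 0 to 2 without 1 array, with PLXNC1 at 1.41 (adjusted p = 0.0783) without the Ventral Thalamus replicate 2 array. Between Centre Median and Ventral Thalamus it became 0 with the actin covariate (EPHA4 1.01, adjusted p = 0.0822), 2 with the XIST split and 0 to 3 without 1 array. EPHA4 had an adjusted p of 0.0712 there without the Centre Median replicate 1 array. Between Centre Median and Medial Thalamus it became 0 with the XIST split (EPHA4 adjusted p = 0.0984) and 0 to 1 without 1 array, with EPHA4 at 0.394 and 0.0648 without either Centre Median array. Between replicate numbers limma called 31 of the 59 members. The filter for genes above the median left 31 members in the test, and 18 of these were called. Since fewer members were tested, the lower count is not read as a loss of calls. The counts by order were tried with alternatives chosen after the data were seen. Members lowest in Ventral Thalamus in both sets numbered 12, against 9 with quantile normalization. Those highest in Centre Median numbered 7, against 5. Shares of all genes under the alternative settings are not given here, so the member counts under them are not read against all genes. The causes of these changes were not tested.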
